A study of Mus musculus with 3 samples.

Results

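The Sox, Pax and T-box genes encode 3 families of transcription factors that specify tissues in the embryo, and EZH2 intervals at these genes were examined in mouse bone marrow-derived macrophages. Members were taken by name from the protein-coding genes of RefSeq GRCm38.p6, the assembly of the mm10 build. They were every Sox gene, Pax gene and Tbx gene with a plain number in its symbol, apart from Pax5 and Tbx21. The rule gave 39 of 21887 protein-coding genes, which were 19 Sox, 8 Pax and 12 T-box genes. Per the labels, the cells came from marrow of adult C57BL/6 mice grown for 5 days with M-CSF, and 1 library was made from untreated cells (NT) and 1 from cells given lipopolysaccharide (LPS) for 2 h. EZH2 was pulled down with the same antibody in each, and an input library was also made, for which no intervals were used. The stimulated track is named TLR, and it was taken as the LPS library because LPS acts through a Toll-like receptor and no other stimulated EZH2 sample exists in the labels. The labels do not say whether cells of several animals were pooled.

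SOX proteins bind DNA through an HMG box, PAX proteins through a paired domain and T-box proteins through the domain that gives the family its name. Each family sets cell fate at many places in the embryo, in the nervous system, neural crest, cartilage, muscle, kidney, eye, limbs and heart. EZH2 is the catalytic subunit of polycomb repressive complex 2 (PRC2), which methylates histone H3 at lysine 27 and holds such genes silent in cells of other lineages. In mammals PRC2 is found mainly at promoters rich in CG dinucleotides.

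For that reason promoter sequence is shown first. The RefSeq promoter table (GRCm38.p6) matched 27 of the 39 members, with 38 promoters in all, and the 250 bases before the transcription start are printed 5′ to 3′ on the gene's own strand, with every CG dinucleotide in capitals. The first 4 are the promoters under an NT interval with the nearest NT summit, the next is the one with the highest NT value among matched members, and the last 2, chosen after their values were seen, are the promoters with the fewest and the most CG among matched members with no interval in the gene or within 2.5 kb of it.
Tbx20, chr9:24774304-24774553, minus strand: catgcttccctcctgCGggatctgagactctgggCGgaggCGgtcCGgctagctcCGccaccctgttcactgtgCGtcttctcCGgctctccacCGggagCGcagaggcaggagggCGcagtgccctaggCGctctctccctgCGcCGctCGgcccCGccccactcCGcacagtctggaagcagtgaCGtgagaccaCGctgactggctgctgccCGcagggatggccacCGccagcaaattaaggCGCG
Sox8, chr17:25570687-25570936, minus strand: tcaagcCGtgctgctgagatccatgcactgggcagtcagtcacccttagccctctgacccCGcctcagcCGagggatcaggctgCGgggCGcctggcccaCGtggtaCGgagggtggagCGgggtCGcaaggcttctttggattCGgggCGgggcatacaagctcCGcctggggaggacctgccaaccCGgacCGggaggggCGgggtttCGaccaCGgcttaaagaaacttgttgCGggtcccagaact
Pax2, chr19:44746351-44746600, plus strand: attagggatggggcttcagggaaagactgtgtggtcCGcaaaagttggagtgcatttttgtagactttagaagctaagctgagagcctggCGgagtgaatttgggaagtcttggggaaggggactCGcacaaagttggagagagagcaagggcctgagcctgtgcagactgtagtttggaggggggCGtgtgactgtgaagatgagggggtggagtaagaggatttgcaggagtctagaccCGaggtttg
Sox6, chr7:116038745-116038994, minus strand: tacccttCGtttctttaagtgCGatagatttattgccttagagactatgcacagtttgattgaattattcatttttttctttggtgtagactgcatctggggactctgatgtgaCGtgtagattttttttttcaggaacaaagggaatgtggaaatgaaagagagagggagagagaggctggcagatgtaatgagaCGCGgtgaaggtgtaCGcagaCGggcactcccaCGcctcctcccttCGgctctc
Sox21, chr14:118237031-118237280, minus strand: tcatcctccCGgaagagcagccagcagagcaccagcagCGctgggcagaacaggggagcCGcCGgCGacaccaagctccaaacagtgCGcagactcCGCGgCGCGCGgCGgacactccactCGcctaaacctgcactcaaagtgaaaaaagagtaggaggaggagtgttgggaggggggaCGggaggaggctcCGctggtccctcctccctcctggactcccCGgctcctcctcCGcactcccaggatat
Tbx22, chrX:107667714-107667963, plus strand: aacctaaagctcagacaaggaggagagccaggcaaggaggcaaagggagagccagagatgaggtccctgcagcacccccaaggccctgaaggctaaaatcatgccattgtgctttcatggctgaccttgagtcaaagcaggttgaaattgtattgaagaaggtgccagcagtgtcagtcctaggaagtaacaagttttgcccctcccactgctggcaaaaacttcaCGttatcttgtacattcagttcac
Sox11, chr12:27342719-27342968, minus strand: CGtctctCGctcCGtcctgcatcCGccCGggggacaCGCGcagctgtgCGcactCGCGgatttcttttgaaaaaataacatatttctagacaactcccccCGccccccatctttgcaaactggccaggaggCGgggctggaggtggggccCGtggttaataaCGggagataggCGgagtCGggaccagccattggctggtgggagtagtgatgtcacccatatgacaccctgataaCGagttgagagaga
The printed stretches hold 22 CG in Tbx20, 18 in Sox8, 5 in Pax2, 9 in Sox6, 17 in Sox21, 1 in Tbx22 and 17 in Sox11. The CG letters read the same on the other strand.

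Most members carried EZH2 intervals in both libraries. An NT interval lay within 2.5 kb of an annotated gene end at 31 of 39 members (79.5%, 95% Wilson interval 64.5 to 89.2%), against 38.2% of all protein-coding genes. An LPS interval lay there at 28 members (71.8%, 56.2 to 83.5%), against 16.2% of all genes, and the same 28 had one in both libraries, against 15.6%. The other 3, Sox30, Tbx10 and Tbx20, had one in NT alone (22.6% of all genes), and no member had one in LPS alone (0.535% of all genes). Of members with an NT interval, 90.3% also had an LPS interval, and over all genes this was 40.9%. The Wilson intervals cover counting error only, and no test was made, because each condition had a single library and genes of a family share descent.

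The libraries were listed separately, with 9643 intervals in NT and 4651 in LPS. Each interval carries a summit value, a whole number at its highest point whose unit is not given, and the value of a gene, given as NT and then LPS, is the highest among its intervals. Read depth and scaling are unknown, so a lower LPS value cannot be read as less EZH2 on chromatin, nor can fewer cells with EZH2 at a gene be told apart from less EZH2 per cell. No RNA was measured, so the macrophage label could not be checked by expression. Of 10 macrophage marker genes, 3 had an NT interval (Mertk 36, Spi1 23, Cd14 20) and none an LPS interval. Over all genes the shares were 38.2% and 16.2%. Of markers of other cells, 1 of 5 B cell genes (Ebf1, 19 and 13), none of 4 T cell genes and 1 of 3 fibroblast genes (Pdgfra, 98 and 41) had intervals, so these lists do not tell the cell types apart.

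**Figure D1:**
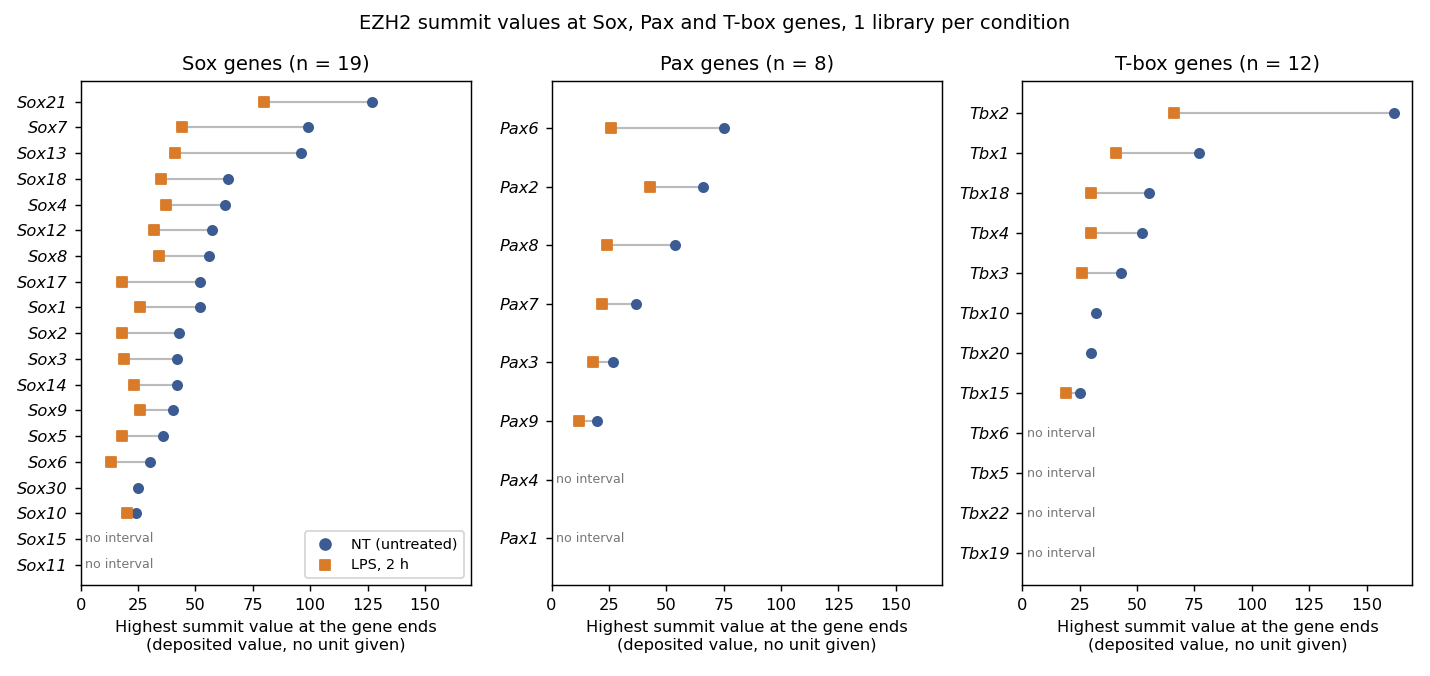
Highest summit value of each gene within 2.5 kb of its ends in NT (circles) and LPS (squares), 1 library each, with a line joining the values of a gene. Tbx2 at 162 and Sox21 at 127 have the highest NT values, and LPS lies below NT at each of the 28 genes with both.

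Members had higher summit values than genes in general. The median NT value was 52 over the 31 members with an NT interval, from 20 at Pax9 to 162 at Tbx2, and 28 over all genes with one. The median LPS value was 26 over 28 members, from 12 at Pax9 to 80 at Sox21, and 18 over all genes with one. The NT intervals of a member covered a median of 3494 bp of the windows at its gene ends, against 1350 bp for all genes with an NT interval. The share of members with intervals was highest in the Sox family, at 17 of 19 in NT and 16 in LPS. It was 6 of 8 in each library for Pax and 8 and 6 of 12 for T-box genes, and the differences between families were not tested.

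Among the Sox genes, the neural B groups all had intervals, as did the D, E and F groups described next. Sox21, which promotes neuronal differentiation, had 127 in NT and 80 in LPS, the highest LPS value of any member. Its NT interval chr14:118233619-118238032 covered most of the gene, which lies at chr14:118233233-118237030 on the minus strand, and the NT summit lay 645 bp downstream of the transcription start. In LPS the same stretch held 2 intervals, with values of 80 and 55. Of the B1 genes, which maintain neural progenitors, Sox1 had 52 and 26, Sox2, also a pluripotency factor, 43 and 18, and X-linked Sox3 42 and 19. Sox14 had 42 and 23, with the higher NT summit 5113 bp outside the gene, and 27 and 12 in the intervals over the gene itself.

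The values of genes of vessel, cartilage and crest fates overlapped those of the B groups. The F group acts in endothelium: Sox7 had 99 in NT and 44 in LPS, Sox18, which acts in lymphatic vessels, 64 and 35, and Sox17, also an endoderm factor, 52 and 18. In the D group Sox13 had 96 and 41, while Sox5 and Sox6, partners of Sox9 in cartilage, had 36 and 18 and 30 and 13. Sox13 thus had the third highest NT value among Sox genes. At the gene ends its group partners were closer to 28, the NT median of all genes with an interval. An interval inside Sox6, however, had 64 and 36. In the E group Sox8 had 56 and 34, Sox9, a factor of cartilage and testis, 40 and 26, and Sox10, a factor of neural crest and glia, 24 and 20. Sox10 was the lowest of all Sox genes in NT.

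The C group was divided. Sox4 had 63 and 37 and Sox12 57 and 32, and Sox11, which with Sox4 acts in developing neurons, had no interval in or near the gene in either library. The nearest NT interval to Sox11 lay 864 kb away, and its printed promoter holds 17 CG. Sox15 had none either, with the nearest NT interval 14.1 kb away. Sox30, a gene of sperm maturation, had a narrow NT interval of 718 bp with a value of 25 and no LPS interval.

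Of the Pax genes, those of kidney, thyroid and eye had the highest values among intervals that reached the windows at the gene ends. The NT summit of Pax6 itself lay 7537 bp inside the gene. Pax6, needed for eye and pancreas, had 75 in NT and 26 in LPS, and Pax2, a kidney and optic gene, 66 and 43. The Pax2 values came from the 3′ end of the gene, and its 3 NT intervals at the ends had 18 and 39 toward the start and 66 at the far end. Pax8, a thyroid and kidney gene, had 54 and 24. The muscle and neural crest pair was lower at the ends, with Pax7, a gene of muscle stem cells, at 37 and 22 and Pax3 at 27 and 18. An interval inside Pax7 had 58 in NT, above the value of Pax8, and 22 in LPS. Pax9, a gene of teeth and thymus, had 20 and 12, the lowest member with an interval.

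Pax1, the close relative of Pax9 that acts in the vertebral column, had no interval within 2.5 kb of its ends, but the nearest, with a value of 27 in NT, began 3306 bp from an end and lay inside the gene. An LPS interval with a value of 11 lay at the same place. Pax4, a gene of pancreatic endocrine cells, had no interval in or near it, and the nearest NT interval was 20.3 kb away.

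The T-box genes held the member with the highest NT value and 4 of the 8 members without an interval at the gene ends. Tbx2, a repressor active in heart and limb, lies at chr11:85832615-85841948. Its NT interval chr11:85826985-85845385, 18401 bp wide, took in the whole gene with a value of 162, which was matched or passed by 0.395% of genes with an NT interval. In LPS it held an interval of 14029 bp with a value of 66 and a second with 25. Tbx1, a gene of the pharyngeal arches, had 77 and 41, Tbx18, a gene of the epicardium, 55 and 30, Tbx4, a hindlimb gene, 52 and 30, and Tbx3 43 and 26. At Tbx1 the highest NT summit lay 6994 bp downstream of the start, and the interval over the start had 61 and 23. At Tbx3 the other 3 NT intervals had values of 14, 18 and 20. Tbx15, a skeletal gene, had 25 and 19, close to the level of genes in general in NT.

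The remaining T-box genes had NT intervals alone or none. At Tbx20, a heart gene at chr9:24720812-24774303, the NT summit lay 2 bp from the transcription start, inside an interval of 1345 bp with a value of 30. The nearest LPS interval was 1496527 bp from the gene. The promoter is the one with 22 CG shown above. The NT interval counted for Tbx10, with a value of 32, lay 512 bp past the 3′ end of the gene, and its summit was 125 bp from an end of the neighbouring gene Nudt8. Tbx6, a gene of paraxial mesoderm, Tbx19, a pituitary gene, and Tbx22, a palate gene, had no interval in or near them. Tbx5, the forelimb and heart counterpart of Tbx4, had none at its ends but 6 NT intervals inside the gene (highest value 28) and 2 LPS intervals (highest 16).

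The adjacent T-box pairs differed in how far intervals reached. Tbx2 and Tbx4 lie 44.4 kb apart on chromosome 11, and intervals covered 27.8% of the 83.5 kb from the start of one to the end of the other in NT and 27.6% in LPS. Tbx3 and Tbx5 lie 112 kb apart on chromosome 5, where intervals covered 7.95% of 215 kb in NT and 4.71% in LPS. No interval was shared between members in either library.

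The window of 2.5 kb decided few members. Just inside it, the nearest edge of the Sox30 interval lay 1581 bp from a gene end, and just outside it that of Pax1 lay 3306 bp away.

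**Figure D2:**
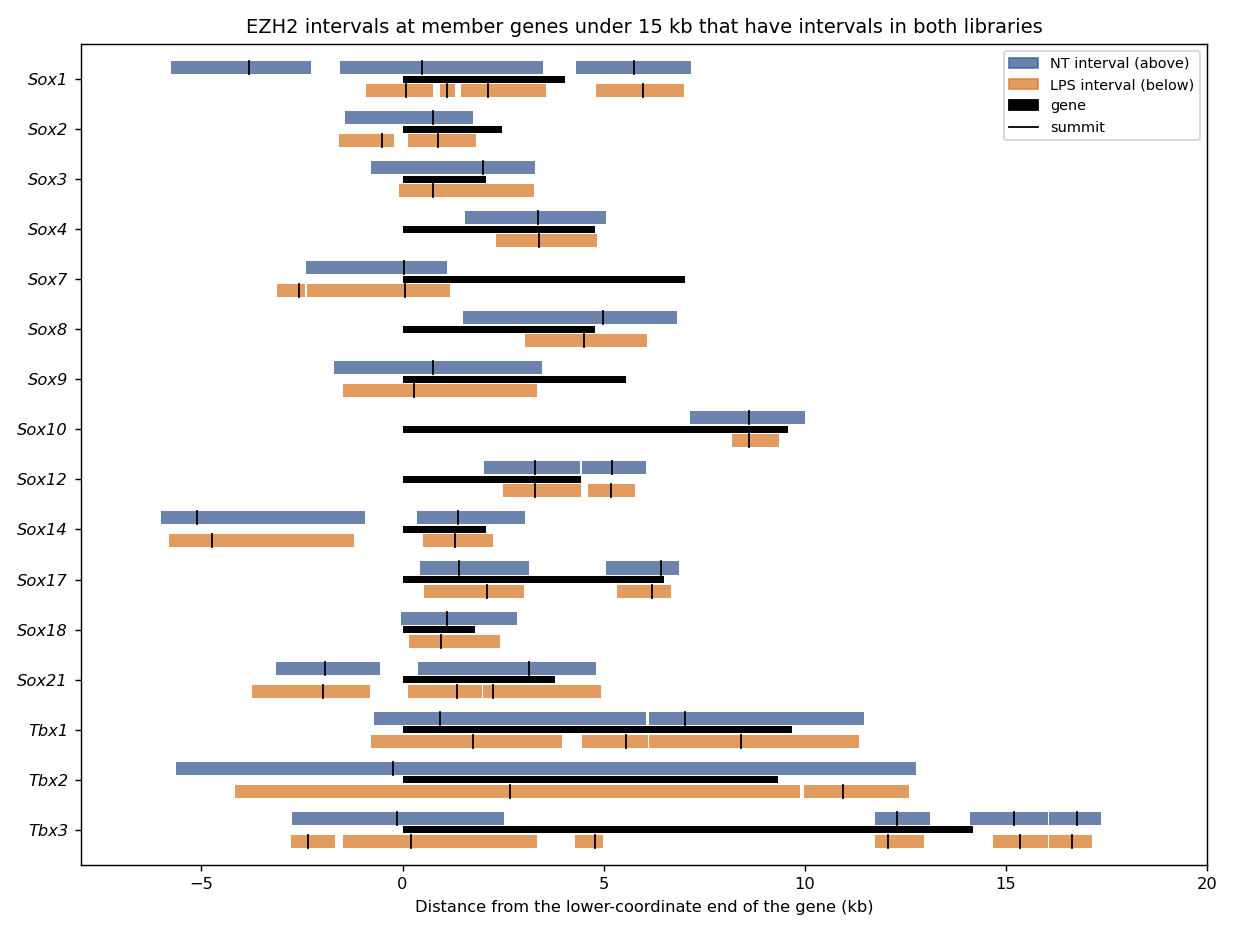
Position of every NT interval (above) and LPS interval (below) at the 16 members shorter than 15 kb with intervals in both libraries, in kb from the lower-coordinate end of the gene (black bar), with summits as vertical lines. The NT interval of 18401 bp at Tbx2 spans the gene, and at Sox1, Sox2 and Sox21 a stretch under 1 NT interval holds several LPS intervals.

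The intervals at members were wide. The 45 NT intervals within 2.5 kb of member ends had a median width of 2871 bp, from 718 at Sox30 to 18401 at Tbx2, against 1305 bp over all NT intervals. Of them, 12 (26.7%) were 5 kb or wider, against 3.19% of all NT intervals. The 49 LPS intervals had a median width of 2261 bp, against 1472 bp, and 3 (6.12%) were 5 kb or wider, against 4.19%. At 23 of the 28 members with both, the LPS intervals covered fewer bases at the gene ends than the NT intervals (82.1%, and 82.2% of all genes with both). The exceptions were Pax8, Sox7, Sox21, Tbx4 and Tbx15.

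Several members had more intervals in LPS. In NT 10 members (32.3% of those with an interval, against 13.5% of all genes with one) had 2 or more intervals at the gene ends, and in LPS 14 members had (50%, against 16.5%). Pax6, Sox1, Sox2, Sox5, Sox7, Sox21, Tbx2 and Tbx3 had more intervals in LPS than in NT, which is 28.6% of the 28 members with both and compares with 7.17% of all genes with both. Sox6 had fewer. The highest summits of the libraries were within 500 bp of each other at 19 of the 28 members (67.9%, against 81.9% of all genes with both). They lay at the same base at Sox10 and Sox12, and 6896 bp apart at Pax6. At all 28 the highest NT and the highest LPS interval overlapped, as at 96.4% of all genes with both.

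LPS values were below NT values at all 28 members with both and at 99.6% of all genes with both, so the direction is not particular to the members. The ratio of LPS to NT value had a median of 0.547 over 28 members and 0.491 over the 3419 genes with both, and 19 members lay above the latter and 9 below. By family the medians were 0.523 for Sox, 0.597 for Pax and 0.561 for T-box genes. The ratios of members ranged from 0.346 to 0.833, and the middle 50% of all genes from 0.407 to 0.577. With a single library each, the error of a ratio is unknown and no difference between members was tested.

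The highest ratios belonged to genes with low NT values, with Sox10 at 0.833 (24 and 20), Tbx15 at 0.76 (25 and 19) and Pax3 at 0.667 (27 and 18), followed by Pax2 at 0.652 (66 and 43). At low NT values a gene enters the ratio only if an LPS interval was listed. The lowest ratios were at Sox17 (0.346, 52 and 18), Pax6 (0.347, 75 and 26), Tbx2 (0.407, 162 and 66) and Sox2 (0.419, 43 and 18). At Pax6 the NT summit lay 7537 bp inside the gene, and an LPS interval with a value of 28, outside the window, had its summit 80 bp from it, which gives 0.373.

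**Figure D3:**
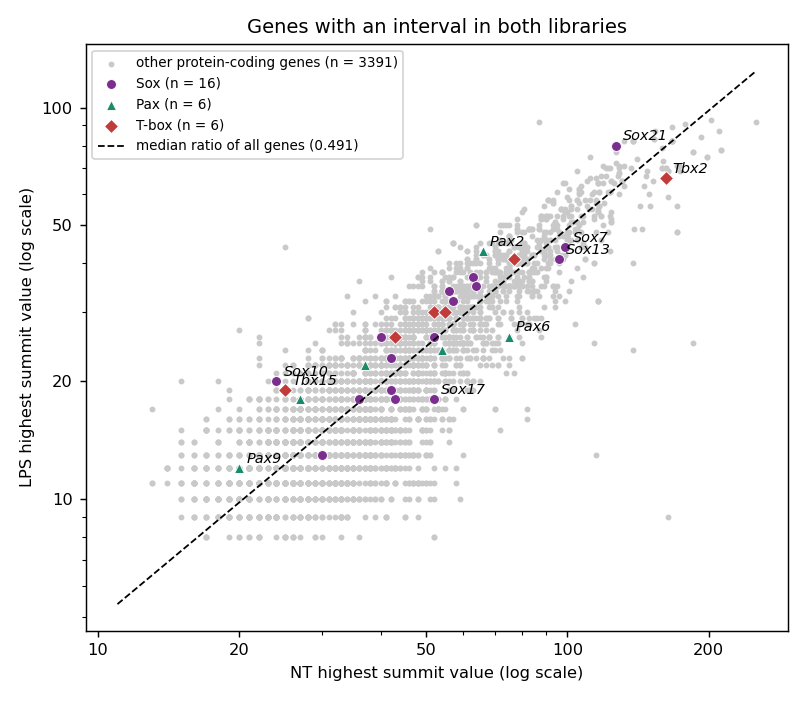
Highest LPS against highest NT summit value (log scales) for the genes with intervals in both libraries, with the 28 members coloured by family. Sox10 and Tbx15 lie well above the dashed line, which marks the median ratio of all genes (0.491), and Sox17 and Pax6 lie below it.

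Whether a member had an LPS interval went with its NT value. All 5 members with an NT value over 75, all 11 over 50 and up to 75 and all 4 over 40 and up to 50 had one, where the shares of all genes were 98.8%, 94.9% and 77.4%. Over 30 and up to 40 it was 3 of 4 members (46.1% of all genes), with Tbx10 the exception. Over 20 and up to 30 it was 4 of 6 members (25.3% of all genes), with Sox30 and Tbx20 the exceptions. Pax9, at 20, had one, as did 12.8% of all genes up to 20.

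Several long members had stronger intervals inside the gene than at its ends. Across the gene bodies and their flanks, members held 69 NT and 72 LPS intervals, of which 24 and 23 lay beyond the windows at the ends. At Pax2, Pax7, Pax9, Sox6 and Tbx15 the highest NT interval of the gene lay inside. At Pax2 it had 79 in NT and 44 in LPS, and it covered 2 further listed transcription starts. At Pax7 the values were 58 and 22, at Sox6 64 and 36, and at Tbx15 39 and 20. At Pax9 they were 24 and 13, little above the 20 and 12 at its ends. At Sox6 the inner NT interval chr7:116029959-116035927 covered a further listed start of the gene. How often genes in general had a higher interval inside than at their ends was not examined.

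The promoters of members were compared with all 21263 listed promoters of protein-coding genes. An NT interval lay over 23 of 38 member promoters (60.5%) and over 32.3% of all promoters, and an LPS interval over 19 (50%) and 11.9%. The 12 members without a listed promoter were Pax3, Pax4, Sox3, Sox7, Sox9, Sox10, Sox17, Sox18, Tbx2, Tbx3, Tbx5 and Tbx15. All of these but Pax4 and Tbx5 had an interval at the gene ends in both libraries. The promoter shares and CG counts therefore describe the matched members and not the families as a whole. The median number of CG in the 300 bases around the start was 13 for matched members and 13 for all promoters. Under NT intervals it was 18 for members and 24 for all promoters. None of the 10 member promoters with up to 5 CG was under an NT interval, against 1.96% of all such promoters, and these belonged to Sox5, Sox6, Sox15, Tbx10 and Tbx22. Of the 23 with 11 or more, 20 were (87.0%), against 54.7% of all such promoters. The exceptions were Sox11 with 21 CG, Sox30 with 28 and Pax1 with 13, and at Sox30 and Pax1 an NT summit lay 651 and 703 bp from the start. Several promoters can belong to 1 gene, as at Sox6 with 6, so they are not independent.

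**Figure D4:**
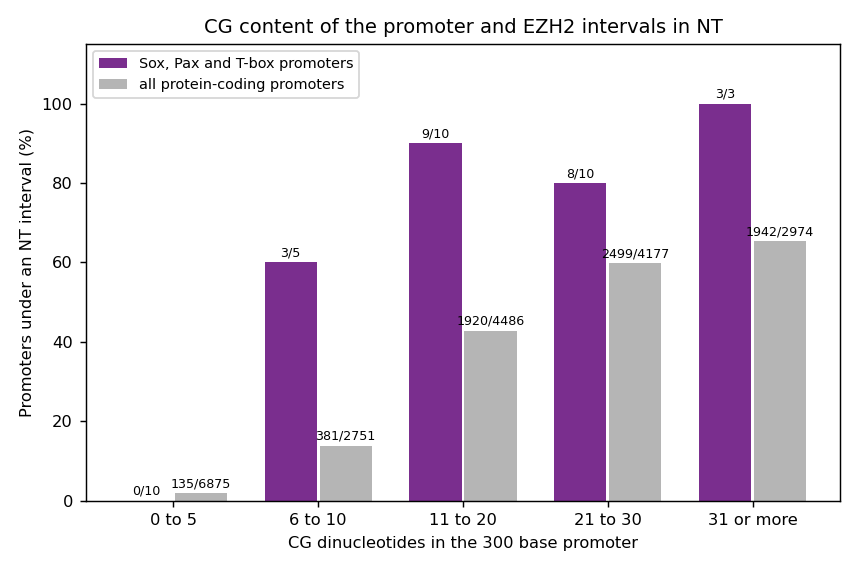
Share of promoters under an NT interval by the number of CG dinucleotides in the 300 bases around the start, for Sox, Pax and T-box promoters and for all promoters of protein-coding genes, with counts above the bars. With 11 to 20 CG the share was 9 of 10 in members and 42.8% in all promoters.

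The highest summits at the ends of members lay farther from a listed transcription start than those of all genes. The highest NT summit was within 1 kb of a listed start at 7 of 21 members with a listed promoter (33.3%) and at 80.3% of 6633 genes. It lay downstream of that start at 14 of 21 members (66.7%) and at 70.6% of genes, with medians of 651 and 131 bp downstream. At Sox4 it lay 1410 bp downstream, at Pax8 1454 bp and at Tbx18 1131 bp. The measure depends on the starts listed, and for Sox5, Sox6, Tbx4 and Pax9 the listed starts lay inside the gene and away from its outer end. At Pax6 the nearest listed start was an inner one. The windows also take in the 3′ end. The summits counted for Pax2 (79559 bp downstream), Tbx10 (7953 bp), Sox14 (7177 bp) and Tbx1 (6994 bp) lay near or past it.

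Family genes outside the naming rule also had intervals. Of 7 such genes, 6 had one in each library, against 15.6% of all genes. Tbx21, a T cell regulator, had 124 and 54, Tbr1, a cortical neuron gene, 95 and 61, Eomes 60 and 28, Pax5, the B cell regulator, 43 and 29, T, the mesoderm gene also called Tbxt, 36 and 19, and Mga 23 and 10. Sry, the testis-determining gene, had none.

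Genes that work with the families were also examined. Among partners of Pax genes in eye, ear and kidney, Eya2 had 31 and 13 and Dach1 18 and 12. Eya1 (40), Eya4 (26) and Eya3 (20) had NT intervals alone, and Dach2 had none. Of 8 heart partners of T-box genes, 7 had an interval in each library, against 15.6% of all genes. Among them were Gata6 (89 and 48), Hand1 (72 and 46) and Gata4 (36 and 20), and Mef2c had none. Of 12 partners and targets of Sox genes, 6 had intervals in NT (50%) and 3 in LPS (25%), near the 38.2% and 16.2% of all genes for a list of this size. Col2a1, the cartilage collagen gene that Sox9 activates, had 76 and 38 and Pou3f3 75 and 47, while Mitf and Dct, targets of Sox10, had none.

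Other families of developmental regulators had NT shares at or above that of the members and LPS shares on either side of it. Of 44 Forkhead box genes 35 had an interval in NT (79.5%) and 27 in LPS (61.4%), with a median NT value of 54. Of 39 Hox genes 37 had one in NT (94.9%) and 34 in LPS (87.2%), with a median NT value of 80, against 79.5%, 71.8% and 52 for the members. These differences were not tested.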

How the data were processed

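EZH2 ChIP-seq was deposited as a set of tracks for an NT and an LPS library, with 1 library per condition. Per the submitters' processing notes, BWA, SICER and mm10 were used, with no version, role or setting named. The authors deposited, per the file headers, intervals and summits for each library separately, as BED positions (taken as counted from 0 and printed here 1-based), and a score at each summit, called the summit value. Depth, use of the input and scaling are not given in the sources used here. Which tool made the intervals is not stated, and an interval can cover several starts.

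Genes came from RefSeq GRCm38.p6. An interval counted for a gene if at least 1 bp of it fell within 2.5 kb of an annotated gene end. The RefSeq promoter table matched 27 members. Promoters were the 250 bases before and 50 after each listed start. Overlaps were computed with pandas 2.3.3 and numpy 2.4.6 and the code was tested on simulated intervals. Wilson intervals at 95% used scipy 1.17.1. No test between conditions was possible.

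Members and lists were chosen with earlier results of these data known. Values were to be given in full for the 4 highest NT members of each family, members with no interval, an interval in 1 library alone or several intervals, and the 4 highest and lowest ratios. Some genes of the partner lists are not reported here. Alternatives changed the windows, the interval lists and the membership.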

Additional observations from a re-analysis of the deposited data

How the results depend on the processing

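Results were recomputed 99 times in all, and 91 of the values lay near those given above, which for counts means a factor of at most 1.5 and for medians the binomial interval of the median. The remaining 8 moved, and for these the cause was not tested. Stricter choices leave fewer intervals or genes by construction. With 1 kb windows the median covered length was 2001 bp, and with the whole gene body 4350 bp. Around listed transcription starts only, 27 members could be used, of which 20 had an NT interval, 18 an LPS interval and 18 both. Over all genes with a listed start the shares were 36.5%, 14.6% and 14.1%. These counts are over fewer members than those above, so they cannot be set directly beside them. Members with an interval in LPS alone numbered 2 when intervals below their library's median value were dropped (Sox10 and Tbx15, with 0.521% of all genes) and 3 when only the highest 4651 NT intervals were used (Sox10, Tbx15 and Pax9, with 3.75% of all genes). The next 2 alternatives, unlike those above, were chosen after seeing the data. With only intervals whose own summit lay within 2.5 kb of a gene end, 1 member, Pax6, was in LPS alone (0.685% of all genes). With only intervals nearest to a member, Tbx10 lost its NT interval and 30 members kept one, against 32.4% of all genes under the same setting. No paired analysis was possible because NT and LPS were profiled in a single library each. Read depth is unknown, so an absent interval cannot be told apart from one below the threshold of listing.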

Other observations

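Some members without intervals lay in long stretches with none. Sox11 lies in a stretch of 2164.8 kb without an NT interval, chr12:26470246-28635048, which holds 4 protein-coding genes, Sox11, Dcdc2c, Allc and Colec11. A distance to the nearest NT interval as great as at Sox11 was found for 7.49% of protein-coding genes. Tbx22 lies in a stretch of 23263.6 kb on chromosome X with 54 protein-coding genes and no NT interval, among them the developmental genes Pou3f4 and Dach2. Whether reads could be mapped there was not tested.

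Non-coding RNA genes that begin or end under the members' intervals included Pax6os1, Tbx3os1, Tbx3os2 and Cerox1, the last under the interval at Sox8. The ends of long non-coding RNA genes lay under 11 of 45 NT intervals at members (24.4%) and under 12.4% of all NT intervals, and under 10 of 49 LPS intervals (20.4%) and 12.8% of all. These counts were taken after the data were seen and were not tested. The members' intervals were also wider (median 2871 bp against 1305 bp in NT). A wider interval can hold more gene ends, and no allowance was made for width.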
